A study of Mus musculus with 6 samples.

Results

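The genes described here are 7 targets of the transcription factor p53 that slow or stop the cell cycle: Cdkn1a, Ccng1, Btg2, Gadd45a, Plk2, Psrc1 and Gtse1. They were taken as every probe set of the array whose annotation named exactly 1 of these genes, which gave 14 probe sets out of 45037 once controls were set aside, and 7 genes out of the 18193 that the annotation names singly. The genes were selected on measured values, with the difference in signal between the genotypes of these same embryos already in view. Their differences are therefore given as a description, and nothing is drawn from how many of them passed a threshold.

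The embryos were whole mouse embryos at embryonic day 8.5, in 2 groups of littermates. Of these, 3 were wild type, and 3 were Tcof1+/-, heterozygous for the gene of treacle, which works in the nucleolus in the making of ribosomal RNA. The labels name no treatment, and each embryo gave 1 RNA sample and 1 Affymetrix Mouse Genome 430 2.0 array, so that the embryo is the replicate. The strain and the make of the Tcof1 allele were not given in the sources used here. Because whole embryos were measured, more cells with a transcript and more transcript per cell cannot be told apart.

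When DNA is damaged or ribosome production fails, the p53 protein is stabilised and switches on genes through a site made of paired half-sites. Those of the arrest arm act at different steps. The product of Cdkn1a, p21, blocks the cyclin-dependent kinases that drive entry into S phase, Btg2 and Gadd45a restrain proliferation more broadly, and Plk2, Psrc1 and Gtse1 encode proteins of the centrosome and mitotic spindle. In embryos with too little treacle, p53 activity is known from genetic work to matter for the survival of neuroepithelial and neural crest cells.

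RefSeq promoter windows on GRCm38.p6, from 250 bases before to 50 bases after each annotated start, were at hand for all 7 genes, as 10 windows. They were searched on both strands for the p53 consensus half-site of 10 bases, whose core is CNNG. A full site was counted where adjacent half-sites with no spacer both kept the core and together had at most 2 mismatches. The search was chosen after the sequences had been seen. A full site was found in 3 of the 10 windows, those of Ccng1, the first start of Cdkn1a and the second start of Gtse1, each with 1 mismatch, whereas 0.326% of all 32851 windows held one. The stretches before the start that hold the site are shown for the genes with the widest difference between genotypes, on the strand of the gene and with the full site in capitals. The Cdkn1a stretch is chr17:29090729-29090978 (plus strand), and the Ccng1 stretch is chr11:40755287-40755536 (minus strand).

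Cdkn1a: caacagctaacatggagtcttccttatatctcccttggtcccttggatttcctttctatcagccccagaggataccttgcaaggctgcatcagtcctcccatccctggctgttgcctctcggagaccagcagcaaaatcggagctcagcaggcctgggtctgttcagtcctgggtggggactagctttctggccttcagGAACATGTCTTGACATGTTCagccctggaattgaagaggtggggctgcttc
Ccng1: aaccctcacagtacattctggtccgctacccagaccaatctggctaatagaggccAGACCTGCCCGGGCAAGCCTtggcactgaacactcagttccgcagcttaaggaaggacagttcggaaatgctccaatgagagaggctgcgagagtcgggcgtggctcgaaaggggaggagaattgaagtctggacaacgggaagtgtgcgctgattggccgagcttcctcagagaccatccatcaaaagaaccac

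The site of Cdkn1a ran from -51 to -32 relative to the upstream start, which lies 2790 bases before the other annotated start. The window of that other start held no match. The site of Ccng1 ran from -195 to -176. For Gtse1 the match, at chr15:85859945-85859964 (plus strand), spanned the second annotated start, from -1 to 19, and is shown because its position differs from the others.

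Gtse1: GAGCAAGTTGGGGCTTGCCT

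An exact half-site without a full site was present in the window of Gadd45a, and 8.36% of all windows held an exact half-site. The windows of Btg2, Plk2 and Psrc1 held neither. A match is a stretch of letters, and these data did not measure binding.

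**Figure D1:**
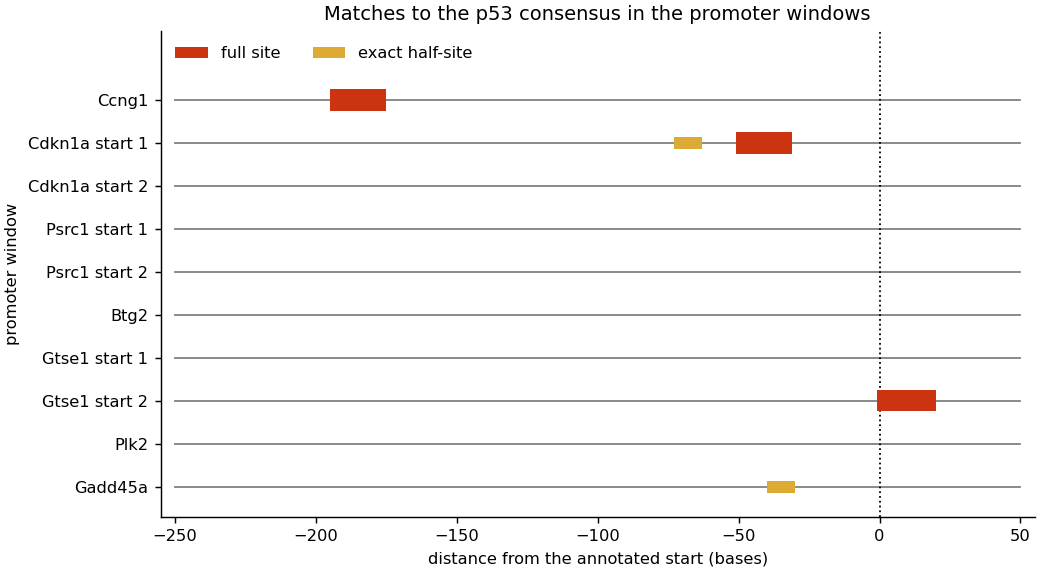
Promoter windows of the 7 genes, with distance from the annotated start in bases on the horizontal axis and 1 line per annotated start. Red blocks are full p53 sites and yellow blocks exact half-sites (those inside a full site are covered by it); full sites lie in 3 of the 10 windows, at -195 to -176 in Ccng1, -51 to -32 in Cdkn1a and -1 to 19 in Gtse1.

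The labelled genotype was checked first. Tcof1 signal on its brightest probe set (1424643_at) was 382, 393 and 387 arbitrary units in wild-type embryos 1, 2 and 3 and 222, 179 and 231 in heterozygous embryos 1, 2 and 3. The groups did not overlap, and heterozygous embryo 2 was the lowest. Its log2 difference of -0.88 (SE 0.12) had an adjusted p of 0.0352 (limma, 27022 probe sets tested), and lost significance without any 1 embryo (adjusted p from 0.0586 to 0.190). Arrays correlated between 0.964 and 0.974 with each other, and the 3 arrays per genotype limit the precision throughout. Neural, neural crest, mesoderm and heart markers passed the low-signal filter (all 16 genes), and some of their sums moved with genotype. Summed signal of the neural markers was 1502 to 1743 in wild types and 1165 to 1422 in heterozygotes. The neural crest sum was 2698 to 2860.4 against 1922 to 2113, also lower without overlap. Most of it came from Crabp1, at 2270 to 2484 against 1651 to 1800. Foxd3, Sox10 and Tfap2a had lower means in heterozygotes but overlapped. The heart sum was higher and only just apart, at 3685 to 4334 against 4351 to 5349. Among its genes Myl7 and Tbx20 were higher without overlap, while Tnnt2 and Nkx2-5 overlapped (log2 differences of 0.11 and -0.014). The paraxial mesoderm sum overlapped, at 787 to 1309.5 against 698 to 934. The part of these shifts in the differences of the 7 genes was not tested. Primitive blood markers summed to 224 in heterozygous embryo 1 and to 3115 to 8089 in the other 5 embryos. Of 5 trophoblast and decidua markers 3 had a probe set that named the gene alone. Their summed signal was 32.4 to 66.5 in wild types and 50.1 to 66.2 in heterozygotes. Only 1 of the 3, Pgr, passed the low-signal filter. Yolk sac endoderm markers varied widely, with sums of 1420 to 7625 in wild types and 638 to 11753 in heterozygotes. Xist signal was 1520.4 to 2358 in wild-type embryos 1 and 2 and heterozygous embryo 1, and 25.1 to 33.6 in the other 3 embryos, so that each genotype held both kinds.

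All 7 genes had higher mean signal in heterozygotes, by amounts that ran from 0.17 (Gadd45a) to 3.13 (Cdkn1a) on the log2 scale. The log2 scale here is log2(signal + 1.87), which understates the change of dim probe sets, and SE is from the limma fit. Of the 14 probe sets, 12 passed the filter on low signal. All 12 were higher on average in heterozygotes, where 50.9% of all tested probe sets were, and in 9 of them every heterozygote lay above every wild type, where 6% of all tested probe sets did. In limma with Benjamini-Hochberg adjustment at 0.05, 6 of the 12 passed as higher and 0 as lower, against 0.0777% and 0.0037% of all tested probe sets. The 6 were the 3 probe sets of Ccng1, both of Cdkn1a and 1 of Psrc1. Another 4 of the 12 had an unadjusted p under 0.05, for a total of 10, where 1681 of all 27022 tested probe sets did. The 2 probe sets left out were dim in both genotypes, at 1.12 to 16.7 for Psrc1 (1451698_at) and 0.798 to 3.98 for Plk2 (1443780_at), at or near the range of control probe sets without a target, which reached 13.5. Every tested member signal was at least 56.8.

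**Figure D2:**
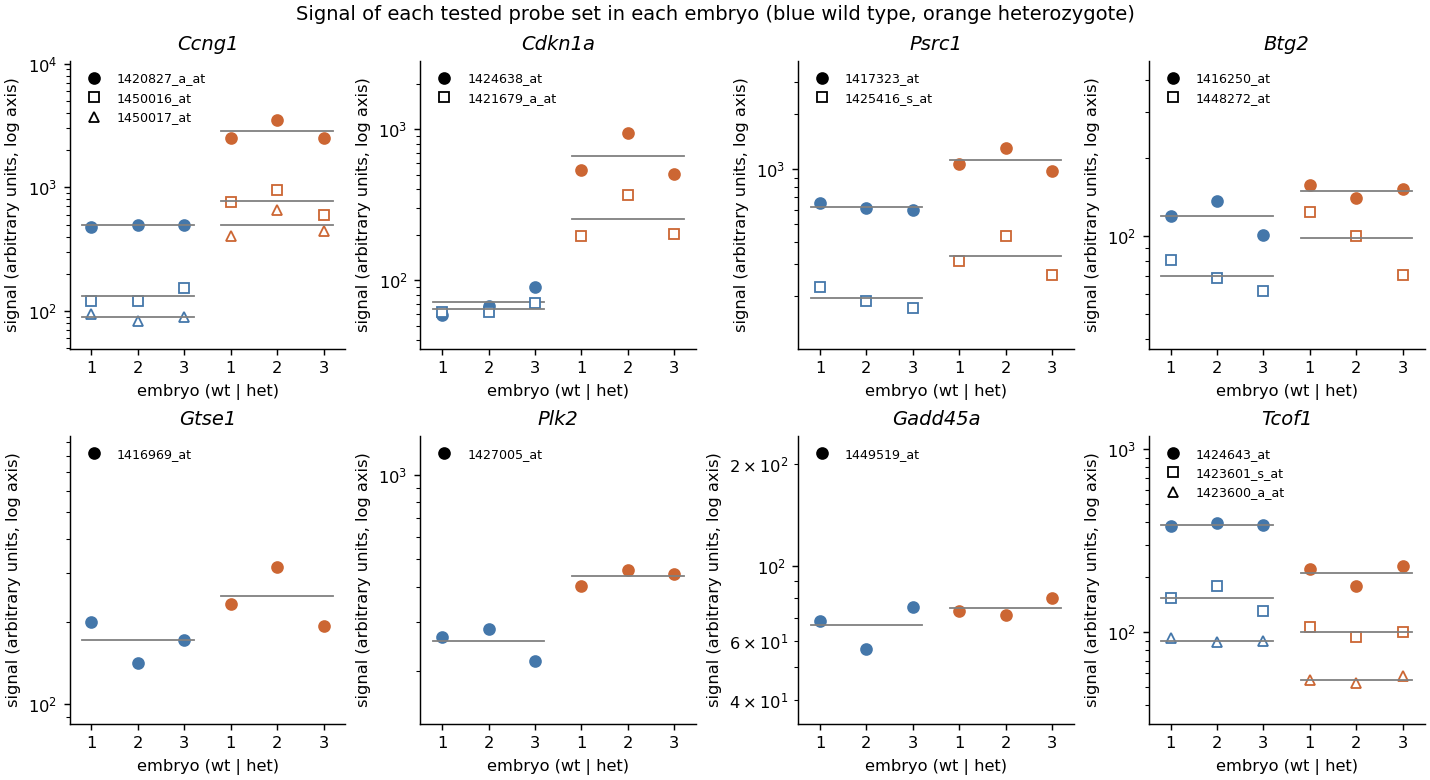
Signal in arbitrary units (log axis) of each tested probe set of the 7 genes and of Tcof1 in wild-type embryos 1 to 3 (blue) and heterozygous embryos 1 to 3 (orange); marker shapes are probe sets and grey lines are group means. Ccng1 and Cdkn1a separate the genotypes by the widest gaps, the 2 genotypes overlap for Gtse1 and Gadd45a, and Tcof1 runs the other way.

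Cdkn1a showed the widest difference. On its brighter probe set (1424638_at) the signal was 58.6, 67.2 and 90.2 in wild-type embryos 1, 2 and 3 and 535, 942 and 509 in heterozygous embryos 1, 2 and 3. The lowest heterozygote was 5.64-fold above the highest wild type, and heterozygous embryo 2 stood above the other heterozygotes. The group means were 72.0 ± 16.3 and 662 ± 243 (SD, n = 3), a log2 difference of 3.13 (SE 0.24). The other probe set (1421679_a_at) read 61.5, 61.2 and 70.3 in wild types and 197, 366 and 202 in heterozygotes. Embryo 2 was again the highest, and the log2 difference was smaller, at 1.90 (SE 0.23). The size of the difference thus depended on the probe set, while the separation of the genotypes did not. Where each lies on the gene's alternative transcripts was not given in the sources used here.

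Ccng1 encodes cyclin G1, an atypical cyclin that recruits a phosphatase to Mdm2 and so feeds back on p53. Signal on its brightest probe set (1420827_a_at) was 482, 495 and 498 in wild-type embryos and 2522, 3492 and 2507 in heterozygous embryos 1, 2 and 3. Wild types were nearly level with each other, and every heterozygote was at least 5.04-fold above them. The second probe set (1450016_at) read 120, 121 and 153 in wild types against 760.4, 957 and 593 in heterozygotes. The third (1450017_at) read 94.4, 82.8 and 89.6 against 408, 649.8 and 440.5. All 3 probe sets gave nearly one size of difference, 2.51 (SE 0.12), 2.52 (SE 0.17) and 2.44 (SE 0.17). Unlike Cdkn1a, the gene thus gave a like answer wherever it was probed.

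Of the antiproliferative genes, Btg2, whose product recruits the deadenylase that shortens messenger RNA tails, differed little. Its brighter probe set (1416250_at) read 119, 137 and 101 in wild types and 158, 140.5 and 152 in heterozygotes, so that the groups were only just apart, by 1.03-fold. The dimmer one (1448272_at) read 80.9, 68.9 and 61.4 against 124, 99.8 and 71.2 and overlapped. Their log2 differences were 0.34 (SE 0.15) and 0.45 (SE 0.22), and heterozygous embryo 1 was the highest on both. Gadd45a, whose product binds Cdk1 and restrains the step into mitosis, read 68.5, 56.8 and 75.5 in wild types against 73.3, 71.4 and 80.4 in heterozygotes. The 2 groups overlapped and the log2 difference was 0.17 (SE 0.17), which turned to -0.074 when arrays were scaled on the hybridization spikes, a scaling that moved the median of all tested probe sets by -0.24.

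The genes of the centrosome and spindle lay between these extremes. Plk2, a polo-like kinase of centriole duplication, read 265, 283 and 216 in wild types and 401, 458 and 445 in heterozygotes (1427005_at). The 3 heterozygotes were close to each other and all above the wild types, by at least 1.42-fold. The log2 difference was 0.77 (SE 0.12), and it did not pass over all probe sets.

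Psrc1, a microtubule-binding protein of the spindle also known as Dda3, was brightest on 1417323_at. The signal there was 655, 611 and 599 in wild types and 1073, 1309.5 and 982 in heterozygotes, a gap of 1.50-fold between the nearest embryos. The log2 difference was 0.84 (SE 0.11). The second probe set (1425416_s_at) read 224, 189 and 172 against 314, 431 and 262, also with no overlap, for a log2 difference of 0.75 (SE 0.18), and it did not pass. The call of Psrc1 remained when heterozygous embryo 3 was left out and was lost when any of the other 5 was (limma adjusted p from 0.0661 to 0.164). It was also lost with equal array medians (adjusted p = 0.166), spike scaling (0.0927), the replicate block (0.0875), the first scan day alone (0.146) and no intensity trend in limma's variance prior (0.539). Ccng1 and Cdkn1a passed in all 6 fits that left out an embryo, but lost their calls without the intensity trend (adjusted p = 0.0555 and 0.145). In that fit 0 of all 27022 tested probe sets passed.

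Gtse1, a microtubule-associated protein made in S and G2 phases that also restrains p53, read 200.0, 141 and 172 in wild types and 232, 316 and 193 in heterozygotes (1416969_at). Heterozygous embryo 3 lay below wild-type embryo 1, so that the groups overlapped. The log2 difference was 0.51 (SE 0.19).

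**Figure D3:**
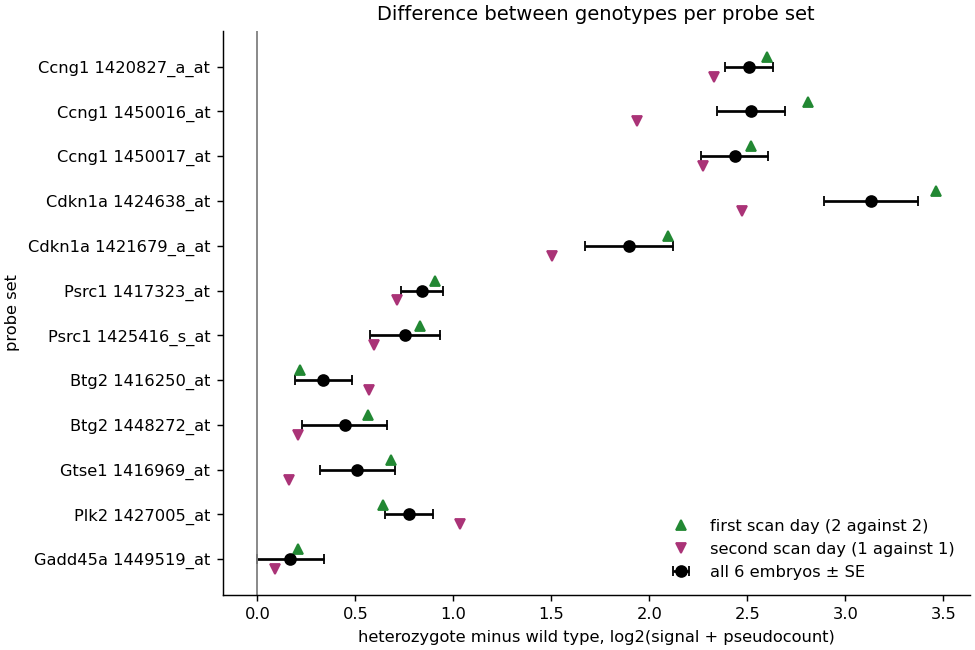
Heterozygote minus wild-type difference on the log2(signal + 1.87) scale for the 12 tested probe sets, as the estimate over all 6 embryos with its standard error (black) and as the difference on each scan day (triangles). Ccng1 and Cdkn1a lie at 1.90 to 3.13, Psrc1 and Plk2 at 0.75 to 0.84, and the other 4 probe sets at 0.17 to 0.51; the values of both scan days are all above 0.

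The arrays were scanned on 2 days, 4 on the first (embryos 1 and 2 of each genotype) and 2 on the second (embryo 3 of each). All 12 probe sets were higher in heterozygotes on the first day and all 12 on the second, and 10 differed more on the first. Cdkn1a differed by 3.46 on the first day and 2.47 on the second, and Ccng1 by 2.60 and 2.33. Plk2 went the other way, with 0.64 and 1.03, and Gtse1 shrank from 0.68 to 0.16. The second day held 1 embryo of each genotype, so its values have no error.

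Heterozygous embryo 2 had both the lowest Tcof1 signal and the highest signal of most of these genes. Its Tcof1 signal was 46.3% of the wild-type mean, against 57.4% in embryo 1 and 59.7% in embryo 3, and it was also the lowest embryo on the other Tcof1 probe sets. The gap was narrower there, with 60.9% in embryo 2 against 69.0% and 64.7% in embryos 1 and 3 on 1423601_s_at, and 58.5% against 60.5% and 63.7% on 1423600_a_at. Embryo 2 was the highest of all 6 embryos on 9 of the 12 tested probe sets, and on the brightest probe set of 5 of the 7 genes. Over the whole array, 15.4% of tested probe sets were highest in it. That share is not a like baseline, because the 7 genes were chosen with the difference between genotypes in view. A gene higher in every heterozygote has its highest embryo among those 3. The standing of embryo 2 as the highest was shared by nearly every probe set called higher on the array, 20 of 21, and is therefore not particular to the 7 genes. The 21 include the 6 member probe sets called higher, each of them highest in embryo 2. Relative to the wild-type mean, Cdkn1a was 13.1-fold higher in embryo 2, 7.43-fold in embryo 1 and 7.06-fold in embryo 3. Ccng1 was 7.10-fold, 5.13-fold and 5.10-fold higher in the same order. Btg2 and Gadd45a did not share this order, with embryo 2 the lowest heterozygote on the brightest probe set of each. Embryos 1 and 3 were nearly level on these brightest probe sets, but not on every other one: Ccng1 on 1450016_at was 5.79-fold above the wild-type mean in embryo 1 and 4.52-fold in embryo 3.

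Embryo 2 exceeded the mean of the other heterozygotes by 0.85 on the log2 scale for Cdkn1a and by 0.47 for Ccng1. The same measure was 0.57 for Gtse1, 0.35 for Psrc1, 0.11 for Plk2, -0.10 for Gadd45a and -0.14 for Btg2. Over all tested probe sets its median was -0.017, with 5th and 95th percentiles of -0.90 and 0.51. Other measures set embryo 2 apart as well. Its hybridization spikes, control transcripts added to every array, were 0.26 brighter than in the other heterozygotes on the log2 scale. Its 3 prime to 5 prime log2 difference of Gapdh, a measure of RNA quality, was the lowest at 0.68, against 0.81 in both others. Its yolk sac endoderm markers summed to 638, against 11753 in embryo 1 and 7127 in embryo 3. Wild-type embryo 1 also had a low sum, 1420. The part of these measures in the standing of embryo 2 was not tested. Within the wild types, where Tcof1 ran from 98.6% to 102% of their mean, the median of the 7 genes stayed within 0.042 of it on the log2 scale. Single genes varied more, with Cdkn1a from -0.27 to 0.34. The genotypes form separate clusters on both measures, so no correlation between Tcof1 and these genes is given over the 6 embryos, and 3 embryos per genotype are too few for one within a genotype.

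**Figure D4:**
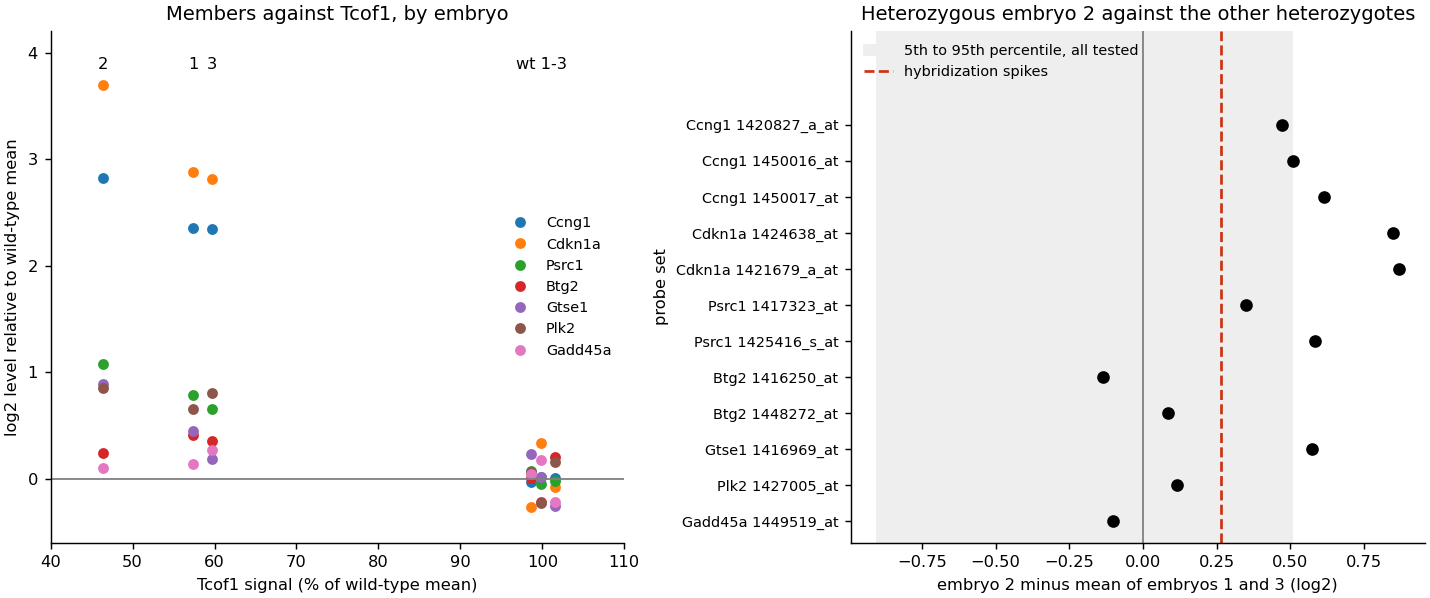
Left, log2 level of each of the 7 genes relative to the wild-type mean (brightest probe set) against the Tcof1 signal of the same embryo in percent of the wild-type mean, with the embryo number above its column of points. Right, log2 excess of heterozygous embryo 2 over the mean of embryos 1 and 3 for each tested probe set, with the 5th to 95th percentile of all tested probe sets shaded and the hybridization spikes dashed; Cdkn1a lies at 0.85 and 0.87, and Btg2 at -0.14 and 0.084.

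Hybridization spikes and the Gapdh measure also moved with genotype. Spikes averaged 9.74 in wild types and 9.98 in heterozygotes (log2 signal), and the Gapdh measure 0.91 and 0.76. Both had an exact two-sided permutation p of 0.1, the smallest that 3 against 3 arrays allow. With arrays scaled on the spikes instead, the log2 differences were 2.27 for Ccng1, 2.89 for Cdkn1a, 0.60 for Psrc1 and 0.53 for Plk2, beside the median of -0.24 for all tested probe sets. By construction this scaling shifts every probe set of an array alike.

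The pattern over the 6 embryos closest to that of Ccng1, by root mean square difference of log2 levels relative to the wild-type mean, belonged to Eda2r (0.20), Trp53inp1 (0.28) and Slc19a2 (0.39). Eda2r is a receptor of the tumour necrosis factor family, Trp53inp1 a p53-induced nuclear protein and Slc19a2 a thiamine transporter. The same genes in the same order were closest to Cdkn1a, at 0.47, 0.73 and 0.87. Eda2r read 36.2, 24.8 and 27.9 in wild types and 163, 264 and 158 in heterozygotes. These genes were picked for their likeness over the embryos, so the high value of embryo 2 follows from the choice.

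The wider arrest pathway was read on 1 probe set per gene, the brightest. Of 12857 genes so tested, 0.117% passed as higher and 0.00778% as lower, 47.3% had a positive difference, and the median difference was -0.012. For the 7 members the median was 0.77. Among 12 other p53 targets that act on growth or arrest, 11 were tested, 6 were positive and 5 negative, and the median was 0.11. Trp53inp1 rose by 2.14 (SE 0.15, limma adjusted p = 5.37e-04) and Zmat3, which binds RNA through zinc fingers, by 1.10 (SE 0.11, adjusted p = 0.00664). Zmat3 lost its call with the replicate block (adjusted p = 0.0741) and without wild-type embryo 1 (0.0528), and both genes lost it without the intensity trend (0.127 for Trp53inp1 and 0.371 for Zmat3). Both had been named in the original study of these embryos, so they are no independent evidence. A second, dim probe set of Trp53inp1 differed by 0.69 (adjusted p = 0.801).

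The stress-induced Sesn2 of mTOR control did not pass on either probe set, although its brighter one read 88.3, 61.3 and 82.9 in wild types and 203, 213 and 121 in heterozygotes, with a log2 difference of 1.16 (adjusted p = 0.262). The phosphatase gene Ppm1d differed by 0.37 and overlapped (adjusted p = 0.793). The arrest genes Rprm (-0.11) and Ptprv (0.47) and the E2F repressor E2f7 (-0.058) overlapped between genotypes as well. Sfn was too dim to be tested. Members of the list thus ranged from -0.16 to 2.14, and 3 of 11 had every heterozygote above every wild type, where 5.69% of all tested genes did.

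Close relatives of the 7 genes gave no call. Of 13 such genes 11 were tested, 0 passed, and on the brightest probe sets 0 had an unadjusted p under 0.05 in limma, with a median of -0.026 and a range of -0.17 to 0.43. Over all 24 tested probe sets of these genes 0 passed, and the range was -1.47 to 0.62. An unadjusted limma p under 0.05 was found for 2 of the 24, beside 1681 of all 27022. The other p21-family inhibitors Cdkn1b and Cdkn1c differed by 0.17 and -0.10, and cyclin G2 (Ccng2) by -0.13. The second probe set of Cdkn1b (1419497_at) went the other way, reading 80.1, 128 and 52.7 in wild types and 29.1, 42.6 and 18.2 in heterozygotes. The groups did not overlap there, and the log2 difference of -1.47 (SE 0.36, adjusted p = 0.560) did not pass. The polo-like kinase genes Plk4 (-0.17) and Plk1 (-0.15) had the smallest p of the list, with adjusted p of 0.796 and 0.810. Gadd45b, the stress-induced relative of Gadd45a, read 23.4 to 36.7 in wild types and 38.3 to 47.1 in heterozygotes, apart but not called (log2 0.43, adjusted p = 0.824). Each of these values is the gene's own, and the difference from its relative among the 7 was not tested.

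Genes on which an arrest would act showed no call. Of 12 tested cyclin, kinase and clamp genes that p21 binds or holds, 0 passed (1 at an unadjusted p under 0.05 in limma), with a median of -0.019 and a range of -0.21 to 0.19. The S phase cyclin gene Ccne1 (-0.21, adjusted p = 0.781) and the mitotic cyclin gene Ccnb2 (-0.21, adjusted p = 0.793) had the smallest p. Pcna, the replication clamp, read 5917 to 6180 in wild types and 5791 to 6117 in heterozygotes. Of 20 genes of G1 and S phase 5 were positive and 15 negative, with a median of -0.031 and 0 passing (0 at an unadjusted p under 0.05 in limma). E2f3 (-0.18) and Rrm1 (-0.12) led the list, with adjusted p of 0.801 and 0.823. Of 20 genes of G2 and M phase 7 were positive and 13 negative, with a median of -0.010 and 0 passing (1 at an unadjusted p under 0.05 in limma). Cdc25b (-0.32, adjusted p = 0.793) and Ube2c (-0.13, adjusted p = 0.824) had the smallest p there. Mki67, the usual marker of cycling cells, was at 2407 to 2589.7 in wild types and 2229.5 to 2674 in heterozygotes. Psrc1 and Gtse1, whose products act in G2 and M phase, lay at 0.84 and 0.51 beside a list whose highest value was 0.17 on the brightest probe sets and 0.26 over all 41 tested ones. As members, both had been chosen with this difference in view, and their distance from the list was not tested. Over every tested probe set 0 passed in any of these 3 lists, with an unadjusted p under 0.05 for 2 of 26, 3 of 47 and 1 of 41 in the order given. The share over the whole array was 1681 of 27022. Cdc25a, the phosphatase gene of S phase entry, was the one of smallest p among the probe sets beyond the brightest. It was at -0.40 there, with every heterozygote below every wild type (1417132_at, limma adjusted p = 0.653). The probe sets of Cdc25a disagreed. A dim one, with means of 19.2 in wild types and 30.0 in heterozygotes, went the other way without overlap (0.77, limma adjusted p = 0.831). The brightest overlapped, at -0.085 (limma adjusted p = 0.901). A p that misses the threshold does not show that these genes were level.

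The list of p53 and its regulators held 10 genes. Trp53 itself had no probe set that named it alone, so its transcript was not read, and Trp73 was too dim to be tested. The other 8 genes were tested, with 0 passing (3 at an unadjusted p under 0.05 in limma) and a median of 0.075. Over all 25 tested probe sets of these genes 0 passed and 5 had an unadjusted p under 0.05, beside 1681 of all 27022. Usp7, a deubiquitinase gene that acts on p53 and Mdm2, was lower in every heterozygote on its brightest probe set (-0.15, limma adjusted p = 0.781). Its probe sets disagreed, from -0.46 on 1454948_at to 0.46 on 1438249_at (limma adjusted p = 0.649 and 0.742). More of them were negative than positive. Mdm2, the ubiquitin ligase gene that p53 induces, read 263, 237 and 257 in wild types and 312, 395 and 301 in heterozygotes, for a log2 difference of 0.40 (adjusted p = 0.692). Heterozygous embryo 2 was the highest there too. The p53-activating kinase gene Hipk2 differed by -0.32 (adjusted p = 0.766).

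**Figure D5:**
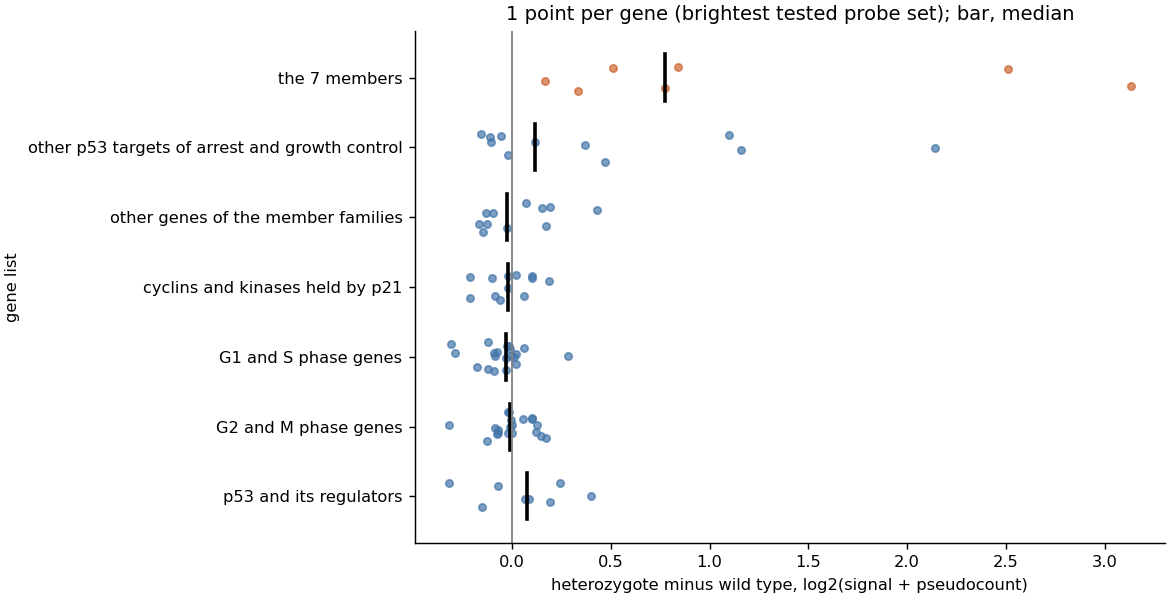
Heterozygote minus wild-type difference on the log2(signal + 1.87) scale, 1 point per gene on its brightest tested probe set, for the 7 members (orange) and 6 lists of related genes (blue), with a bar at each median. The members have a median of 0.77, while the cell cycle lists have medians between -0.031 and -0.010.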

How the data were processed

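Per the labels' protocols, RNA of single embryos (100 ng) was amplified and biotin-labelled in 2 cycles. The authors deposited a linear signal intensity for each probe set, which came from GCOS per the submitters' processing notes; its signal algorithm was not given in the sources used here. Every array had a trimmed mean of 150.001. Scan day was read from the instrument records, and 64 controls were left out. Values were taken as log2(signal + 1.87), 1.87 being the 10th percentile, and the dimmest 40% of probe sets (below about 13.2) were left out. The other 27022 were fitted with limma 3.58.1 in R 4.3.3 (intensity trend, two-sided, Benjamini-Hochberg over all tested), with genotype as the sole term. Names came from the platform annotation (34945 with 1 symbol, 932 with several, 9160 with none), and symbols were checked against RefSeq. Members and lists were chosen with earlier results of these data known; the text names all members, the 2 genes of smallest p in each list, called genes and the 3 nearest patterns, and other genes were named after their values were seen. The fit was tested on simulated data. Same-numbered embryos did not deviate together (correlations of -0.079, -0.11 and -0.024), so the numbers were not treated as pairs. Alternatives were the pseudocount, array scaling (spike scaling was added after seeing the data), the filter, the variance prior, array weights, replicate or scan day as a block, the first scan day alone and each embryo left out.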

Additional observations from a re-analysis of the deposited data

How the results depend on the processing

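Over 18 alternatives the count of 6 member probe sets became 0 without the intensity trend in limma's variance prior. There 0 of all 27022 probe sets passed, and 1571 had an unadjusted p under 0.05. The count was 4 to 6 when any 1 embryo was left out, where 8 to 20 of all probe sets passed. With the replicate block it was 4, where 10 of all probe sets passed. Without the trend the other pathway genes called went from 2 to 0; Zmat3 was lost with the replicate block, leaving 1, and without wild-type embryo 1 (range 1 to 2). The Tcof1 difference was -0.95 to -0.77 without any 1 embryo. It was -0.88 without the trend, with the replicate block and with scan day as a block, and -0.95 on the first scan day alone, each with the call lost (limma adjusted p = 0.413, 0.182, 0.0906 and 0.212). All 7 member differences stayed positive in every alternative except Gadd45a, which was -0.074 with spike scaling; by its construction that scaling moved the median of all probe sets, by -0.24. Spike scaling and equal array medians each gave 5 member probe sets, without Psrc1, and the mean of both probe sets gave 2.51 for Cdkn1a. The Gapdh measure differed by -0.14 between genotypes, and by -0.18 to -0.079 without any 1 embryo. With 3 arrays per genotype, changes of modest size may be missed, and probe sets near the signal of untargeted controls carry no level.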

Other observations

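Across the whole array, 49 tested genes had a full p53 site in a RefSeq promoter window, and 46 of them were not among the 7 members. Of these 46, 28 had a positive difference, and in 7 (15.2%) every heterozygote lay above every wild type, where 5.72% of the 10318 tested genes without a site did. The median differences were 0.035 and -0.012, and 0 of the 46 passed in limma after adjustment. An unadjusted limma p under 0.05 was found for 5 of them, beside 711 of the 10318 genes without a site. The list was formed after the data had been seen and was not tested. Zfp365, a zinc finger protein gene of genome stability, read 31.6, 26.4 and 30.5 in wild types and 80.1, 109 and 63.7 in heterozygotes, with a log2 difference of 1.43 (SE 0.23, limma adjusted p = 0.0915). Heterozygous embryo 2 was again the highest. The p53 targets Rps27l, a ribosomal protein S27 relative, and Ckap2, a spindle protein, differed by 0.39 (adjusted p = 0.653) and 0.31 (adjusted p = 0.653) without overlap; the Rps27l probe set may also read its near-identical paralogue. Pid1, an adaptor of insulin signalling, differed by 0.57 (adjusted p = 0.649).

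Of the 11 genes called higher that had a promoter window, 2 (18.2%) held a full site, where 0.473% of the 10367 tested genes with a window did. Both were members (Ccng1 and Cdkn1a), which were chosen for their difference. The rest, Eda2r, Slc19a2, Ddit4l, Lrrfip1, Ak1, Dcxr, Ifrd1, Phlda3 and Psrc1, had no full site in these windows. The windows reach 250 bases before a start and say nothing about sites elsewhere.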
